A study of Mus musculus with 4 samples.

Results

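Fpr1 and Fpr2 on chromosome 17 and Clec4d and Clec4e on chromosome 6 encode cell-surface receptors of innate immunity. Their loci were described by peaks of acetylated histone H4 in mouse bone marrow-derived macrophages, mapped by chromatin immunoprecipitation and sequencing (ChIP-seq). The members were all peaks that overlapped chr17:17980000-18070000 (the Fpr locus, 90 kb) or chr6:123190000-123250000 (the Clec4 locus, 60 kb) of the mm9 mouse genome build. They numbered 133 of the 175801 peaks in the series, 81 at the Fpr locus and 52 at the Clec4 locus. The loci were chosen from covered lengths and other results of these same libraries, so the differences given here are descriptions without a test.

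The 4 libraries came from C57BL/6 macrophages on day 7 of differentiation, immunoprecipitated with an antibody to acetyl-histone H4. The first was from HDAC3 +/- cells, called wild type (wt) by the submitters, left untreated, and the second from HDAC3 +/- cells given 100 ng/ml lipopolysaccharide (LPS) for 4 h. The others were from HDAC3 -/- (HDAC3 KO) cells, 1 untreated and 1 given LPS in the same way. Untreated cells are called resting and LPS-treated cells stimulated. The reference genotype therefore lacked 1 copy of HDAC3, and no library was from HDAC3 +/+ cells. Each group had 1 library, so no difference could be set against a spread between replicates. How HDAC3 was deleted and in which cells of the mouse are not given in the sources used here.

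Formyl peptide receptors are G protein-coupled receptors that sense N-formylated peptides released by bacteria and by damaged mitochondria, and they guide phagocytes towards them. Fpr1 is the classical receptor for short formyl peptides. Fpr2 is a related receptor with a broader set of peptide and lipid ligands. Clec4e, also called Mincle, and Clec4d, also called MCL, are C-type lectin receptors that bind glycolipids such as mycobacterial cord factor and signal through the Fc receptor gamma chain, Syk and Card9. Both pairs are known as genes of myeloid cells. LPS comes from the outer membrane of Gram-negative bacteria and is sensed by TLR4. Acetylated H4 is found at promoters and enhancers in use, and HDAC3 removes acetyl groups from histones as part of corepressor complexes.

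Among protein-coding genes in the RefSeq table, which is on the GRCm38.p6 build, Fpr1 and Fpr2 lie next to each other, between Has1 on one side and Fpr3 on the other. Clec4d and Clec4e are also direct neighbours, between Clec4n and Vmn2r19. The peaks are on mm9 and coordinates were not converted. No start site, exon or intron was therefore placed among the peaks, and a peak is assigned here to a locus and not to 1 gene of it. For the same reason the labels were not checked against Hdac3 itself or against macrophage marker genes.

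The RefSeq promoter table held all 4 genes. The 250 bases before each start site are shown because these are the promoters of the receptors whose loci are described. They are printed 5′ to 3′ on the strand of the gene, with matches to the motif letters searched in capitals.
Fpr1: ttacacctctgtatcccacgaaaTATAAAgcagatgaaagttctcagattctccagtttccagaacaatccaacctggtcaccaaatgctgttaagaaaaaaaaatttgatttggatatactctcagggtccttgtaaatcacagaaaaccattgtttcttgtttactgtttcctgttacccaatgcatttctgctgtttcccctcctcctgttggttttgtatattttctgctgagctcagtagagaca
Fpr2: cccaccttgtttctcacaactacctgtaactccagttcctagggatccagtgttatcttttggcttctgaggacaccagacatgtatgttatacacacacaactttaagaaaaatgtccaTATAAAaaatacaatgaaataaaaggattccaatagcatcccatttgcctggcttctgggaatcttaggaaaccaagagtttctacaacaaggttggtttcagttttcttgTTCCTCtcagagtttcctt
Clec4d: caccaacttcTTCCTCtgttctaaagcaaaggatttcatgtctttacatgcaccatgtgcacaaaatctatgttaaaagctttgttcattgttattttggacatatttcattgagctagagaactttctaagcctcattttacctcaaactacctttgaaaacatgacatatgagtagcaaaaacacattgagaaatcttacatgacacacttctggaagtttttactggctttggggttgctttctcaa
Clec4e: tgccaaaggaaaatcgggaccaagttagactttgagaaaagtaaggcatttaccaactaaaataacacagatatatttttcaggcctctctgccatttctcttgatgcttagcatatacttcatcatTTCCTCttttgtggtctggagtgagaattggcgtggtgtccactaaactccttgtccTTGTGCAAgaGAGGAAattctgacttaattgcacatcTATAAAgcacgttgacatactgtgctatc

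Both strands were searched for letters of 6 motifs, named for the factor or element known to use them. The letters were GAGGAA for PU.1, TTGCNNAA for C/EBP, GGNNTTTCC for NF-kB, TGANTCA for AP-1, GAAANNGAA for the ISRE, and for the TATA box TATAAA. The Clec4e promoter held the most matches, a TATAAA 29 to 24 bases before the start, a match to the C/EBP letters 66 to 59 bases before it, and the PU.1 letters at 56 to 51 and at 123 to 118 bases. The Clec4d promoter held the PU.1 letters 240 to 235 bases before its start. The Fpr2 promoter held them 19 to 14 bases before its start and a TATAAA at 130 to 125, and the Fpr1 promoter held a TATAAA at 227 to 222. No match overlapped another. The NF-kB, AP-1 and ISRE letters were in none of the 4 windows, which says only that these letters do not occur there.

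Among all 32851 promoters of the table, 23.3% held the PU.1 letters, 9.56% the C/EBP letters, 12.4% TATAAA, 4.93% the NF-kB letters, 6.75% the AP-1 letters and 7.13% the ISRE letters. The share of G and C was 38.4% for Fpr1, 38.8% for Fpr2, 35.2% for Clec4d and 39.6% for Clec4e, against a median of 52.4% over all promoters. A match is a description of the letters and not a bound site.

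At the Fpr locus, peaks covered far more of the 90 kb in both stimulated libraries than in the resting libraries. Covered length was 9.96 kb in resting wt and 32.8 kb in stimulated wt. It was 4.12 kb in resting HDAC3 KO and 41.4 kb in stimulated HDAC3 KO. These lengths are 11.1, 36.5, 4.57 and 46.0% of the locus. The resting HDAC3 KO library had the least covered length of the 4 and the stimulated HDAC3 KO library the most.

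**Figure D1:**
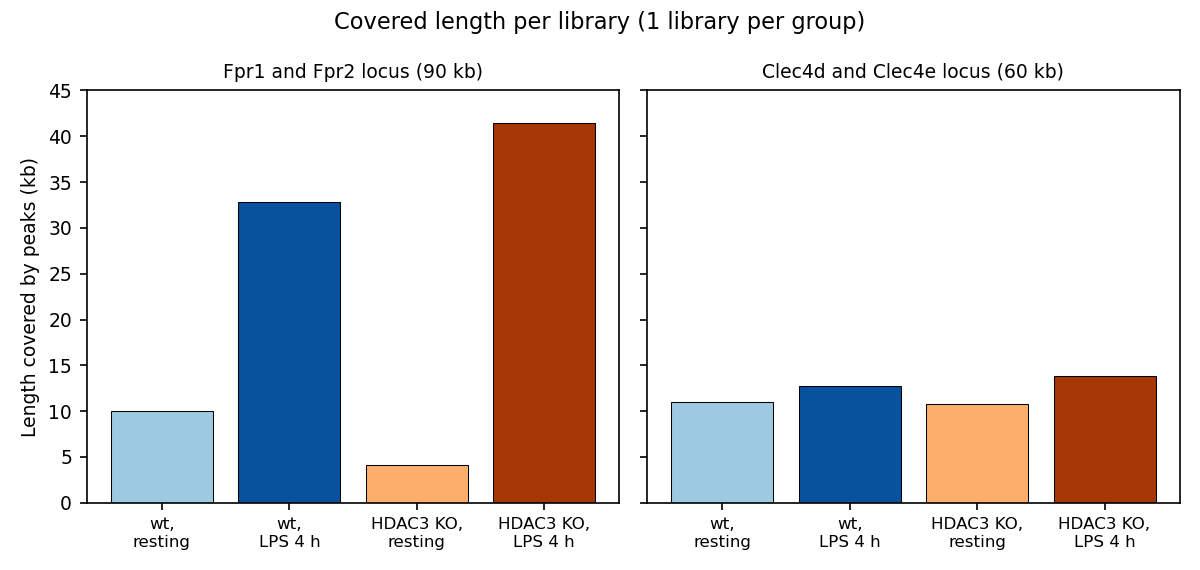
Bars give the length in kb covered by peaks at each locus in each library, with 1 library per group and so no error bars. At the Fpr1 and Fpr2 locus the stimulated libraries reach 32.8 and 41.4 kb, while at the Clec4d and Clec4e locus all 4 libraries lie between 10.8 and 13.9 kb.

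The stimulated library covered 3.29 times the length of the resting library in wt and 10.1 times in HDAC3 KO. Over each whole list the corresponding ratios were 1.06 and 1.38. Ratios between treatments and between genotypes share libraries and are not independent of each other. Windows of 90 kb over the genome with a peak in any library numbered 12198. A stimulated length at least 2 times the resting one and at least 5 kb greater was found in 2.54% of them in wt, in 6.10% in HDAC3 KO and in 1.92% in both genotypes. The Fpr window met the definition in both. In wt 4 windows gained more length than its 22.9 kb, and in HDAC3 KO none gained more than its 37.3 kb. The locus was picked with such gains in view, so its rank is no test. The ratios were 6.13 in wt and 17.9 in HDAC3 KO over peaks at or above the median score of their list, and the HDAC3 KO ratio was 6.22 with the locus widened by 20 kb on each side.

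**Figure D2:**
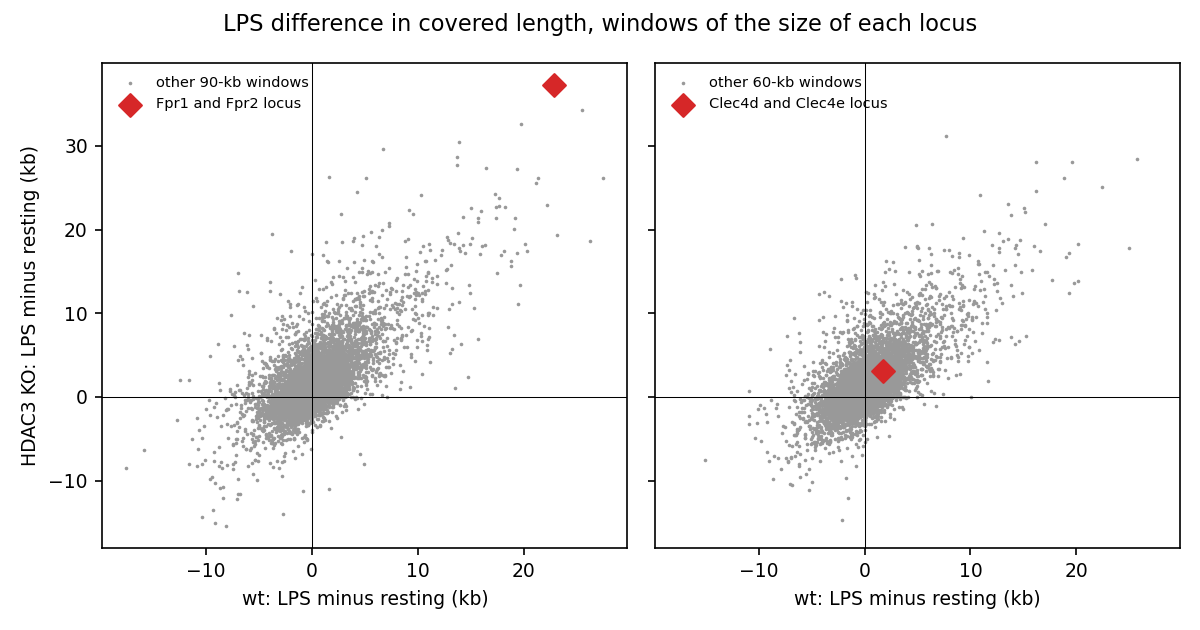
Each grey point is a window of the size of the locus, placed by its covered length in stimulated minus resting cells (kb) in wt (horizontal) and in HDAC3 KO (vertical), and the red diamond is the locus. The Fpr1 and Fpr2 locus lies at 22.9 and 37.3 kb, and the Clec4d and Clec4e locus at 1.78 and 3.09 kb. Of the 15730 windows of 60 kb, 1694 in wt and 1806 in HDAC3 KO had a larger difference than the Clec4d and Clec4e locus.

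In resting wt the Fpr locus already held more covered length than most windows of its size, and in resting HDAC3 KO less so. In resting wt 594 of the 12198 windows held more than its 9.96 kb, against a median window of 1.77 kb. In resting HDAC3 KO 2841 held more than its 4.12 kb, against a median of 1.64 kb. Resting wt had 15 peaks of 356 to 1166 bp with scores of 55.4 to 315, and resting HDAC3 KO had 6 peaks of 396 to 1095 bp with scores of 53.0 to 163. The score of a peak was given by the authors. It begins near 50 in every list, and it depends on read depth and input, so scores are not compared in size between lists, and each is read by its rank within its own. The median score over a whole list was 116 in resting wt and 122 in resting HDAC3 KO, and the medians of the Fpr peaks were lower, at 80.8 and 77.3, with 5 of the 15 and 2 of the 6 at or above the median of their list. The median width of these peaks, 625 and 683 bp, was close to that of the whole lists, 590.0 and 691 bp.

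In resting wt the highest-scored peak lay at chr17:18007626-18008727 (score 315, with 17.8% of its list scored higher). The widest lay at chr17:18046498-18047663 (1166 bp, score 196). In resting HDAC3 KO the highest-scored peak was at chr17:18008064-18008796 (score 163, with 39.6% of its list higher) and the widest at chr17:18046567-18047661 (1095 bp, score 156). Both libraries thus had their leading peaks in the same pair of places, about 28 and 67 kb from the left edge of the locus.

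With LPS the Fpr peaks were more numerous and, by their medians, wider and higher in their own lists. Stimulated wt had 27 peaks of 366 to 3212 bp with scores of 58.0 to 1366, and stimulated HDAC3 KO had 33 peaks of 313 to 4498 bp with scores of 50.8 to 1916. At or above the median score of their list were 16 of the 27 and 19 of the 33. The share of the list scored higher than a peak had a median over the Fpr peaks of 67.1% in resting and 40.3% in stimulated wt, and of 73.6 and 38.0% in HDAC3 KO. The median widths were 914 and 927 bp with LPS, against 722 and 836 bp over the whole lists.

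The leading peak differed between the stimulated libraries. In wt it was at chr17:18005498-18008709, which was both the highest-scored (1366, with 4.25% of its list higher) and the widest (3212 bp). In HDAC3 KO it was at chr17:18023434-18027931, again both the highest-scored (1916, with 2.21% of its list higher) and the widest (4498 bp, with 1.08% of its list wider). The bases of the second peak were covered in stimulated wt by a pair of peaks, the higher scored 797, and those of the first in stimulated HDAC3 KO by a pair, the higher scored 734.

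**Figure D3:**
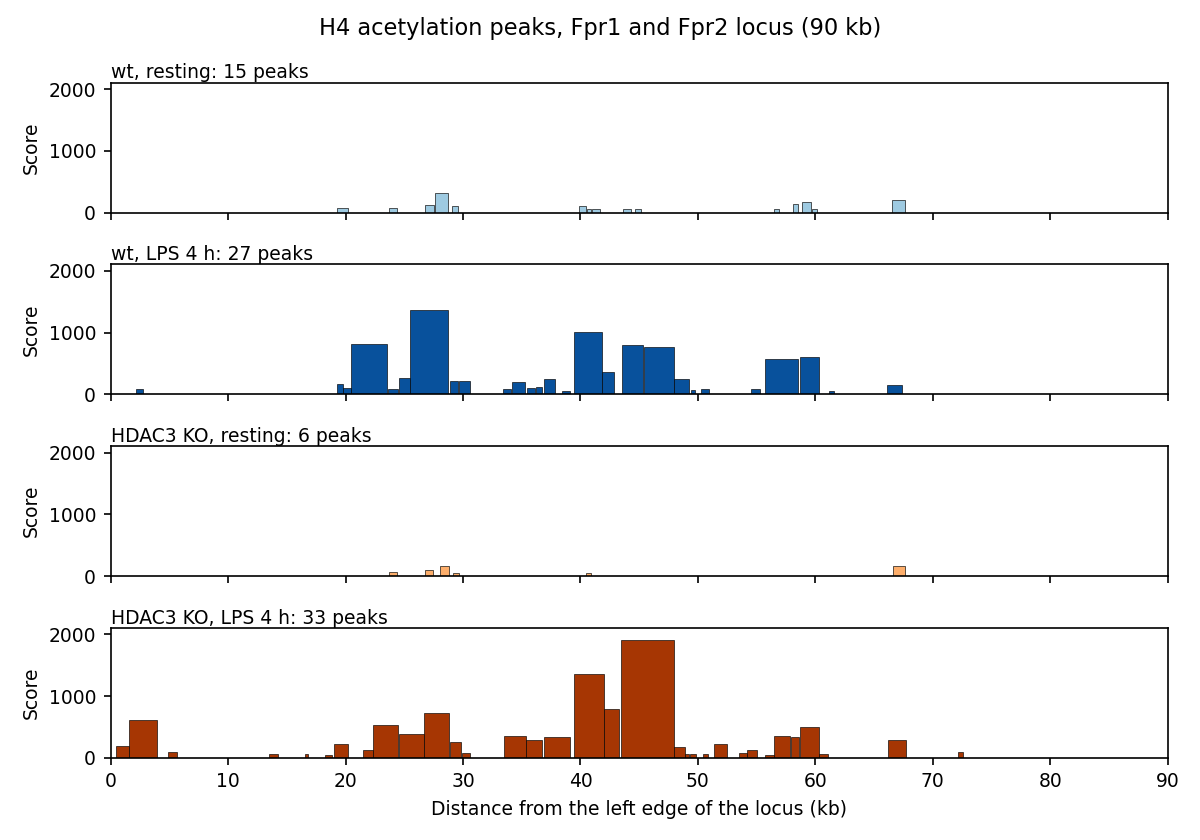
Each bar is 1 peak of the Fpr1 and Fpr2 locus, drawn to scale from its start to its end, with distance from the left edge of the locus (kb) on the horizontal and the authors' score, a peak's own value within its list, on the vertical axis, for 4 libraries from top to bottom. The resting libraries hold 15 and 6 bars and the stimulated libraries 27 and 33.

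Most of the peaks with LPS stood close together. When peaks of 1 library within 500 bp of each other were joined, the longest stretch at the Fpr locus was 2.80 kb in resting wt, 11.3 kb in stimulated wt, 1.57 kb in resting HDAC3 KO and 16.3 kb in stimulated HDAC3 KO. The 11.3-kb stretch, chr17:17999269-18010616, joined 8 peaks, and 53 of the 27387 joined stretches of its list were longer. The 16.3-kb stretch, chr17:18013474-18029801, joined 9 peaks, and 56 of 30686 were longer. Median joined stretches were 1.09 and 1.25 kb in these lists. The longest stretches of the 2 stimulated libraries did not overlap, but each place also held long stretches in the other library. Over the 16.3-kb stretch stimulated wt had stretches of 4.39, 4.42 and 7.37 kb, kept apart by the 500-bp limit. Over most of the 11.3-kb stretch stimulated HDAC3 KO had a stretch of 9.17 kb.

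The stimulated libraries shared most of their acetylated bases at the Fpr locus. Of the 32.8 kb covered in stimulated wt, 91.5% was also covered in stimulated HDAC3 KO, and of the 41.4 kb covered in the latter, 72.5% was covered in the former. A total of 20.3 kb was covered in both stimulated libraries and in neither resting library. The resting peaks lay inside the stimulated ones: 96.8% of the bases covered in resting wt were covered in stimulated wt, and 99.9% of those in resting HDAC3 KO were covered in stimulated HDAC3 KO. Only 3.58 kb was covered in all 4 libraries. Shared bases over the whole lists were not counted, so it is not known whether these shares differ from those of the genome.

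Every resting peak of the Fpr locus, 15 in wt and 6 in HDAC3 KO, overlapped a peak of the stimulated library of the same genotype by at least 1 bp. Over the whole lists, 35.6% of resting wt peaks and 25.0% of resting HDAC3 KO peaks had no such partner. In the other direction, 17 of the 27 stimulated wt peaks had no partner in resting wt (31.7% of the whole list), with scores of 58.0 to 808. In stimulated HDAC3 KO 28 of the 33 peaks had none in resting HDAC3 KO (39.9% of the whole list), with scores of 50.8 to 1916. Of the 27 peaks of stimulated wt, 1 had no partner in stimulated HDAC3 KO (19.5% of the whole list). Of the 33 of stimulated HDAC3 KO, 9 had none in stimulated wt (35.3% of the whole list).

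Merging the peaks that overlapped between lists gave 27 regions at the Fpr locus and 62522 over the genome. A peak with LPS and none when resting was found in 9 of the 27 in wt (16.2% of all regions), in 21 in HDAC3 KO (26.4%) and in 8 in both genotypes (6.56%). The opposite, a peak when resting and none with LPS, was found in 0 of the 27 in wt (22.7% of all regions) and in 0 in HDAC3 KO (15.2%). A peak in all 4 libraries was found in 5 of the 27 (28.5% of all regions). These contrasts entered the choice of the locus, and the counts are descriptions. They depend on how regions are made: merged across gaps of up to 500 bp, the LPS gains numbered 1 in wt, 6 in HDAC3 KO and 1 in both.

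The 3 widest regions of the Fpr locus show how the same place was called in each library. At chr17:18023434-18027933 (4500 bp), peaks covered 1148 bp in resting wt, 4300 bp in stimulated wt, none in resting HDAC3 KO and 4498 bp in stimulated HDAC3 KO. The resting wt coverage there came from a pair of peaks scored 59.3 and 62.7, near the lowest score listed. At chr17:18004569-18008796 (4228 bp), peaks covered 1857 and 4126 bp in resting and stimulated wt, and 1366 and 4201 bp in HDAC3 KO. This place was called in every library, and the length called was greater with LPS in both genotypes. At chr17:18000478-18004444 (3967 bp), they covered 697 and 3881 bp in wt and 748 and 2971 bp in HDAC3 KO.

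The rightmost region called in all 4 libraries, chr17:18046103-18047679, varied least of these in covered length. Peaks there covered 1166 and 1312 bp in resting and stimulated wt and 1095 and 1477 bp in HDAC3 KO. In wt its peak ranked lower with LPS, with 46.7% of the list scored higher, against 31.4% at rest. In HDAC3 KO its peak ranked higher with LPS, with 30.4% of the list scored higher, against 40.95% at rest. This region was singled out after its values were seen.

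HDAC3 KO and wt differed at the resting Fpr locus: peaks covered 4.12 kb in HDAC3 KO and 9.96 kb in wt, a ratio of 0.41. A length in resting wt at least 2 times that in resting HDAC3 KO and at least 5 kb greater was found in 0.287% of all 90-kb windows. Of the 6 peaks of resting HDAC3 KO, 0 lacked a partner in resting wt (24.6% of the whole list), while 9 of the 15 wt peaks had none in resting HDAC3 KO (29.3% of the whole list). The 9 had a median score of 64.5, against 109 for the 6 with a partner. Counted by merged regions, the share was below that over the genome.

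A peak in resting wt and none in resting HDAC3 KO was found in 4 of the 27 regions (19.1% of all regions), and the reverse in 0 (13.1%). The 4 were chr17:17999000-18000438, chr17:18023434-18027933, chr17:18035715-18038579 and chr17:18038657-18040321, with highest scores in resting wt of 75.0, 62.7, 141 and 177. All 4 had a peak in both stimulated libraries, and the share of all regions with that full pattern was not counted. In the last of them, peaks covered 1234 bp in resting wt, 1590 bp in stimulated wt and 1650 bp in stimulated HDAC3 KO.

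With LPS the order of the genotypes turned at the Fpr locus, with 41.4 kb in HDAC3 KO and 32.8 kb in wt, a ratio of 1.26. The ratio over the whole lists was larger, 1.35, and after each length was divided by that of its list the locus ratio was 0.94, below 1. A peak in stimulated HDAC3 KO and none in stimulated wt was found in 9 of the 27 regions (23.4% of all regions), and the reverse in 1 (11.6%). Of these 9, 4 were scored at least 100 in HDAC3 KO. They were chr17:17980491-17981565 (187), chr17:17984848-17985624 (101), chr17:18031333-18032492 (218) and chr17:18052106-18052593 (101). The region in wt alone, chr17:18041146-18041554, was scored 59.5.

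With LPS the genotypes differed most at the left end of the locus. In its first 10 kb, peaks covered 0.60 kb in stimulated wt, 4.26 kb in stimulated HDAC3 KO and 0 in both resting libraries. In the next 10 kb they covered 0.76 kb in resting wt, 0.71 kb in stimulated wt, 0 in resting HDAC3 KO and 2.65 kb in stimulated HDAC3 KO. Within these bins, the region chr17:17981570-17983973 was singled out after its values were seen. It was covered over 602 bp in stimulated wt (score 83.0, with 70.4% of its list higher). In stimulated HDAC3 KO it was covered over 2404 bp (score 610, with 14.6% of its list higher). Further right the stimulated libraries were closer, with 9.42 kb in wt and 8.37 kb in HDAC3 KO in the third 10 kb, and 8.72 and 9.41 kb in the fifth. In the sixth they were further apart than in these, with 5.493 kb in wt and 7.155 kb in HDAC3 KO. The difference at the left end ran on past the locus: in the 10 kb outside its left edge, stimulated wt had 1.81 kb and stimulated HDAC3 KO 4.22 kb.

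**Figure D4:**
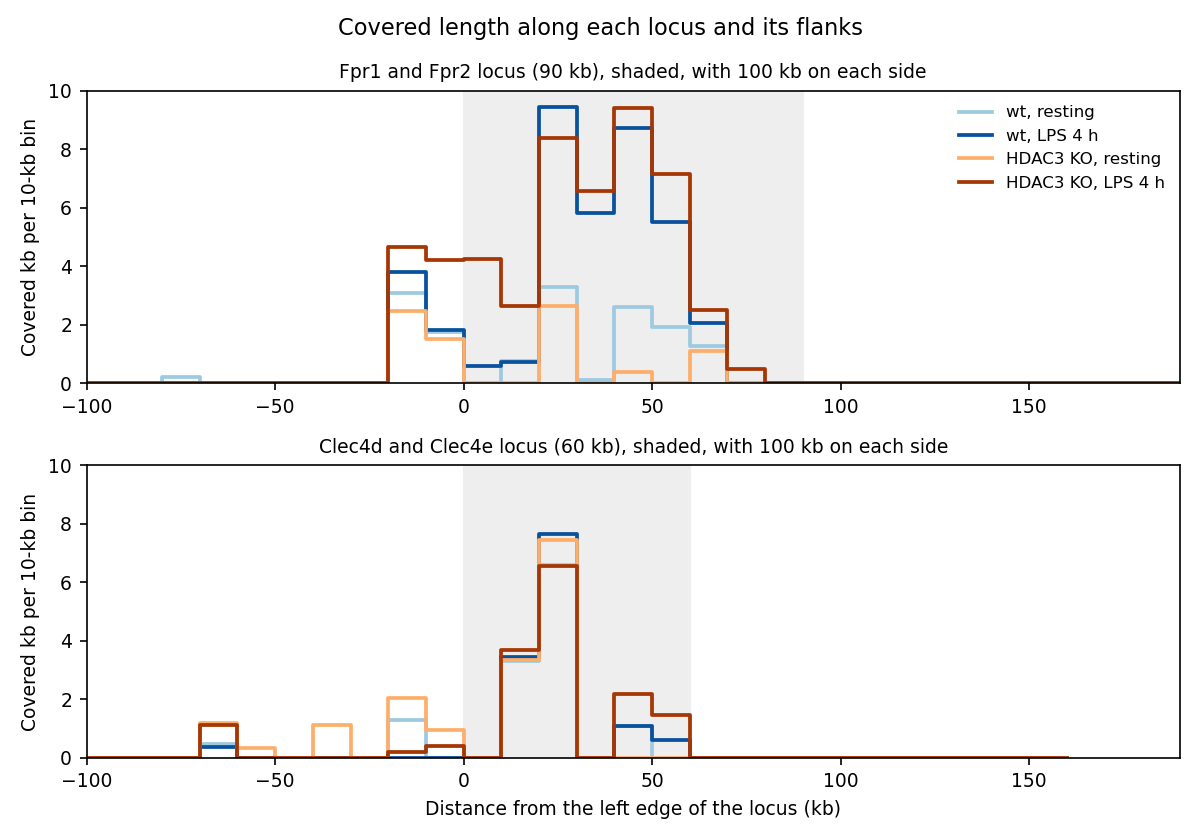
Lines give the covered length in kb per 10-kb bin for 4 libraries, by distance from the left edge of the Fpr1 and Fpr2 locus (top) and of the Clec4d and Clec4e locus (bottom), with the loci shaded and 100 kb shown on each side. From 20 to 70 kb into the Fpr locus both stimulated lines stand above the resting ones and reach 9.42 kb per bin, while in the bin at 10 kb stimulated wt (0.71 kb) lies just below resting wt (0.76 kb), and no library has a peak in the 100 kb to the right of either locus.

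The Fpr peaks ended inside the right edge of the locus. The last lay 22.3 kb from that edge in resting wt, 22.6 kb in stimulated wt, 22.3 kb in resting HDAC3 KO and 17.4 kb in stimulated HDAC3 KO. In the 100 kb to the right of the locus no library had a peak, and the next peak of any library lay at least 3006.9 kb away. Whether reads could be mapped in that stretch was not tested. In the 100 kb to the left, covered length in wt was 5.06 kb at rest and 5.62 kb with LPS, and in HDAC3 KO it was 3.97 and 8.87 kb. The nearest peak outside the left edge was 3.79 kb from it in resting wt (score 433), 3.79 kb in stimulated wt (603), 3.86 kb in resting HDAC3 KO (259) and 2.06 kb in stimulated HDAC3 KO (746). The nearest inside it was at 19.2 kb (score 75.0), 2.15 kb (83.0), 23.7 kb (59.5) and 0.49 kb (187) in the same order. In each library the nearest peak outside the left edge was thus scored higher than the nearest inside it. In the resting libraries the nearest inside peak was not close to the edge, at 19.2 kb in wt and 23.7 kb in HDAC3 KO.

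At the Clec4 locus, by contrast with the Fpr locus, the covered length was similar in the 4 libraries. It was 11.0 kb in resting wt, 12.7 kb in stimulated wt, 10.8 kb in resting HDAC3 KO and 13.9 kb in stimulated HDAC3 KO, or 18.3, 21.2, 18.0 and 23.1% of the locus. Both stimulated libraries had somewhat more than both resting libraries. The peaks numbered 16, 14, 10 and 12 in the same order, so that in wt fewer peaks covered more length with LPS. The difference between the loci was not tested.

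The stimulated length was 1.16 times the resting one in wt and 1.29 times in HDAC3 KO. The median ratio was 1.00 in wt and 1.19 in HDAC3 KO over 60-kb windows covered in both libraries of the genotype. After division by the covered length of each list, the HDAC3 KO ratio was 0.93, below 1. The definition of at least 2 times and at least 5 kb more was met in 2.00% of the 15730 windows of 60 kb in wt, 4.69% in HDAC3 KO and 1.42% in both, and not by the Clec4 locus in either. More length was gained in 1694 windows in wt and in 1806 in HDAC3 KO.

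The Clec4 locus was, like the Fpr locus in wt, well covered before LPS. In resting wt 250 of the 15730 windows held more covered length, and in resting HDAC3 KO 440 did. The median window held 1.43 and 1.33 kb. Joined across 500 bp, the longest resting stretch was 7.62 kb in wt, with 56 of 32129 in its list longer, and 10.0 kb in HDAC3 KO, chr6:123208526-123218531, with 55 of 28087 longer. With LPS the longest were 9.34 kb in wt, with 112 of 27387 longer, and 9.19 kb in HDAC3 KO, with 310 of 30686 longer.

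The leading peaks of the Clec4 locus lay within 1 merged region, chr6:123210998-123214956, in all 4 libraries. The highest-scored and widest peak was chr6:123213602-123214939 (score 588, 1338 bp) in resting wt and chr6:123212458-123214845 (score 842, 2388 bp) in resting HDAC3 KO. With LPS it was chr6:123210998-123213473 (score 995, 2476 bp) in wt and chr6:123212153-123214942 (score 1226, 2790 bp) in HDAC3 KO. The shares of each list that were scored higher were 5.92% in resting wt, 7.16% in stimulated wt, 3.19% in resting HDAC3 KO and 5.10% in stimulated HDAC3 KO. The leading peaks of resting and stimulated wt did not overlap, so these are ranks of different places. The stimulated wt peak over the resting one, chr6:123213552-123214956, was scored 765, with 10.7% of its list higher. In HDAC3 KO the leading peaks of both libraries overlapped. At the place of the resting wt leader, and for the leading peaks of HDAC3 KO, the share of the list scored higher was greater with LPS than at rest. At the place of the stimulated wt leader it was smaller with LPS, at 7.16%, against 22.9 and 40.8% for the resting wt peaks there.

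**Figure D5:**
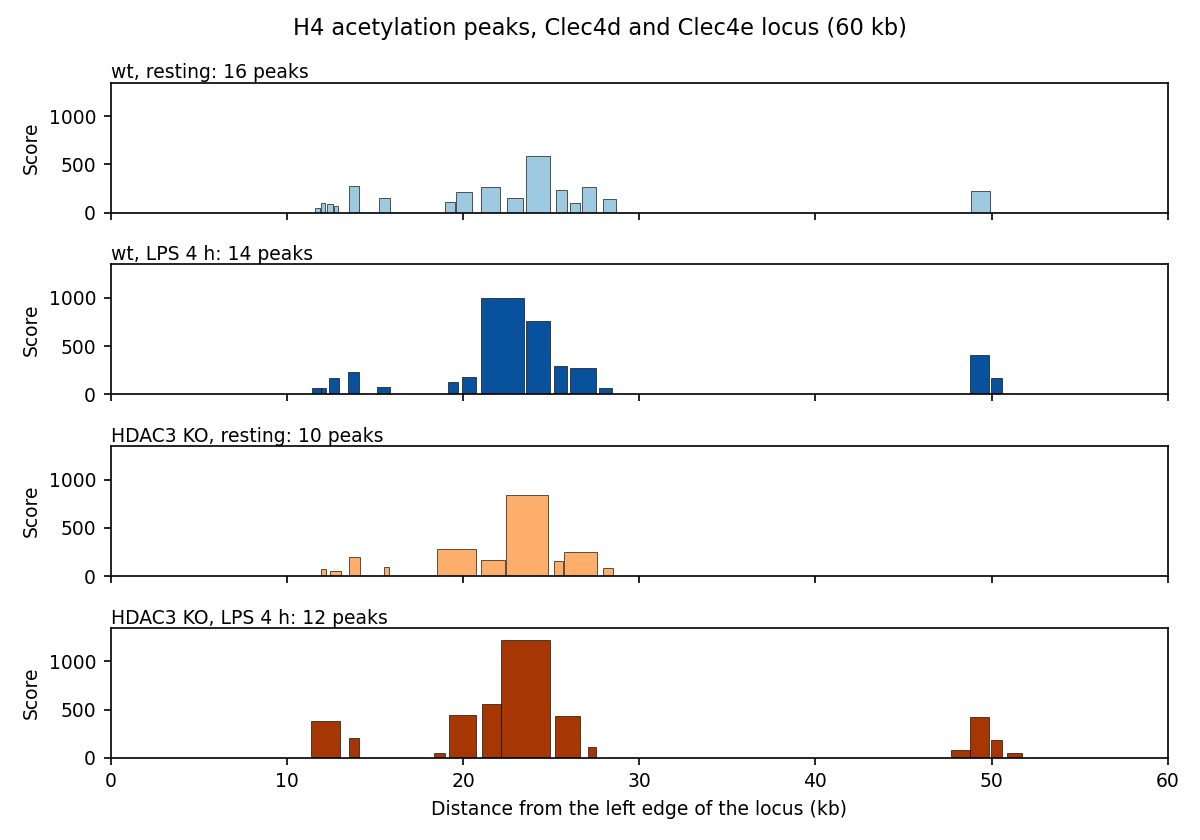
Each bar is 1 peak of the Clec4d and Clec4e locus, drawn to scale from start to end by distance from the left edge (kb), with the authors' score on the vertical axis, for 4 libraries from top to bottom. All libraries hold a group of peaks between about 11 and 29 kb led by a peak scored 588 to 1226, and a second, smaller group near 49 kb is missing from resting HDAC3 KO.

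Of the 11 merged regions at the Clec4 locus, 5 were called in every library (28.5% of all regions). Calls with LPS and none at rest were found in 1 region in wt (16.2% of all regions), in 4 in HDAC3 KO (26.4%) and in 1 in both (6.56%). The reverse was found in 0 in wt (22.7%) and in 2 in HDAC3 KO (15.2%). Of the 16.6 kb covered in any library, 7.10 kb was covered in all 4, and the same share over the genome was not counted.

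The 3 widest Clec4 regions were each called in every library. At chr6:123210998-123214956 (3959 bp), peaks covered 3288 and 3881 bp in resting and stimulated wt, and 3736 and 3878 bp in HDAC3 KO. Its resting peaks were scored 261, 148 and 588 in wt and 162 and 842 in HDAC3 KO. At chr6:123215161-123217618 (2458 bp), they covered 2026 and 2281 bp in wt, and 2400 and 1909 bp in HDAC3 KO. At chr6:123208366-123210759 (2394 bp), they covered 1501 and 1422 bp in wt, and 2217 and 2193 bp in HDAC3 KO. In the first of these regions the library with the least length was resting wt, and in the third both HDAC3 KO libraries were above both wt libraries.

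A separate group of peaks lay to the right of the main group, near 49 kb from the left edge, and it was called in every library except resting HDAC3 KO. At chr6:123238784-123239933 (1150 bp), peaks covered 1084 bp in resting wt (score 223, with 27.5% of its list higher) and 1053 bp in stimulated wt (407, with 22.1% higher). They covered none in resting HDAC3 KO and 1063 bp in stimulated HDAC3 KO (429, with 21.5% higher). This region was the only 1 of the 11 Clec4 regions called in resting wt and not in resting HDAC3 KO (19.1% of all regions), and 0 had the reverse calls (13.1%). The neighbouring region chr6:123239966-123240601 had a peak in both stimulated libraries, scored 172 in wt and 185 in HDAC3 KO, and in neither resting library. A further pair of regions, chr6:123237674-123238760 and chr6:123240850-123241708, was called in stimulated HDAC3 KO alone, with scores of 80.4 and 53.2. Joined across 500 bp, this group spanned 1.08 kb in resting wt, 1.81 kb in stimulated wt and 4.04 kb in stimulated HDAC3 KO.

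In the main group, 2 of the 11 regions were called in every library except stimulated HDAC3 KO. Over the genome, 15.2% of all regions had a peak in resting and none in stimulated HDAC3 KO, and 11.6% a peak in stimulated wt and none in stimulated HDAC3 KO. Both are broader patterns, and the share of all regions with exactly this pattern was not counted. At chr6:123205111-123205863 the scores were 150 in resting wt, 80.8 in stimulated wt and 93.0 in resting HDAC3 KO. At chr6:123217740-123218665 they were 143, 65.8 and 79.1. At both, the resting wt score was above the median of its list and the other scores were below the medians of theirs. These regions are named after their values were seen, because they are the only ones at either locus with a peak in a resting library and none in the stimulated library of the same genotype.

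The genotypes differed little in covered length at the Clec4 locus, with a ratio of HDAC3 KO to wt of 0.98 resting and 1.09 with LPS. A length in resting wt at least 2 times that in resting HDAC3 KO and at least 5 kb greater was found in 0.197% of 60-kb windows and not here. Of the bases covered in resting wt, 80.5% were covered in resting HDAC3 KO, and 81.8% in the other direction. With LPS these shares were 83.2 and 76.5%. The same shares of bases over the whole lists were not counted. After division by list length the LPS ratio was 0.81.

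The surroundings of the Clec4 locus held few peaks. In the 100 kb to the left, covered length in wt was 1.78 kb at rest and 0.39 kb with LPS, and in HDAC3 KO it was 5.61 and 1.74 kb, so that here the resting libraries had more than the stimulated ones. The peak nearest to the left edge was 11.5 kb outside it in resting wt (score 61.3) and 11.6 kb inside it (score 50.2). No library had a peak in the 100 kb to the right, and the next one lay at least 971.8 kb away. Whether reads could be mapped there was not tested. Inside the right edge the nearest peak was at 10.1 kb in resting wt, 9.40 kb in stimulated wt, 31.5 kb in resting HDAC3 KO and 8.29 kb in stimulated HDAC3 KO.

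The windows most like each locus were those with the smallest sum, over the 4 libraries, of absolute differences in covered length. For the Fpr locus the nearest was chr6:86470001-86560000, with 12.2 and 31.5 kb in resting and stimulated wt, 10.8 and 38.1 kb in HDAC3 KO and a sum of 13.6 kb. It was followed by chr11:83320001-83410000 (sum 17.6 kb) and chr14:103390001-103480000 (19.3 kb). These 3 windows had 7.84 to 10.8 kb in resting HDAC3 KO, all above the 4.12 kb of the Fpr locus. For the Clec4 locus the nearest were chr3:105670001-105730000 (sum 2.05 kb), chr6:122530001-122590000 (2.47 kb) and chr11:96790001-96850000 (3.15 kb). They were named by position only, since no gene was placed on mm9.

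Read depth is unknown for these lists, and a call from bulk chromatin does not separate the share of cells with the mark from its amount per cell, which cannot be told apart. Over the whole series the lists held 39550 to 48706 peaks and covered 35.4 to 50.4 Mb, most in stimulated HDAC3 KO. The part of depth, of the input and of immunoprecipitation in the differences at these loci was not tested.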

How the data were processed

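Per the submitters' processing notes, Bowtie and mm9 were used, and per the file headers peaks were called with MACS against an input library. Versions, settings and the input used are not given in the sources used here. Each deposited list holds start, end and score of the peaks of 1 library. The score is the authors' value, with a scale that is not stated.

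The members and motif letters were chosen with earlier results of these data known. Covered length is the number of bases of a locus inside peaks, counted from 1 on mm9. Peaks overlapping by at least 1 bp were merged into regions, and touching peaks were kept apart. Windows had the size of each locus and were in register with it. Named by rule were the highest-scored and the widest peak per library, the resting peaks in the widest region, the 3 widest regions, regions called in 1 genotype alone with a score of at least 100, and the 3 windows most like each locus. Other named regions were chosen after their values were seen. The plan's list of further receptor-signalling genes was not run, since no mm9 annotation was used. With 1 library per group there was no test and no leave-one-out value. The counting was tested on simulated lists: 15 of 15 call patterns and 1200 of 1200 covered lengths were recovered over 5000 simulated regions. The simulated regions held at most 1 peak per library, and the windows were of 90 kb and not shifted. Regions with several peaks of 1 library, windows of 60 kb and windows in register with a locus were therefore not tested. Promoter sequences are from RefSeq (GRCm38.p6). Counting used Python 3.11.15 with pandas 2.3.3 and numpy 2.4.6, and plots used matplotlib 3.10.9.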

Additional observations from a re-analysis of the deposited data

Results flagged for a closer look

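With 1 library per group, the differences listed here were not tested. They are places where one condition or genotype moved up and the other down.

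At the Fpr locus, covered length in HDAC3 KO minus wt was -5.85 kb in resting and 8.58 kb in stimulated cells. At the Clec4 locus it was -0.18 kb resting and 1.12 kb with LPS.

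In 4 of the 11 regions of the Clec4 locus, covered length with LPS minus resting had opposite signs in the genotypes. The share of all regions with opposite signs was not counted, so it is not known whether this is usual. At chr6:123203489-123204144 it was 6 bp in wt and -36 bp in HDAC3 KO, at chr6:123205111-123205863 153 and -315 bp, and at chr6:123215161-123217618 255 and -491 bp. At chr6:123238784-123239933 it was -31 bp in wt and 1063 bp in HDAC3 KO. The region chr6:123203489-123204144 was called in all 4 libraries, over 599 and 605 bp in wt and 618 and 582 bp in HDAC3 KO. Its differences, and the -31 bp in wt, are small differences in where called peaks start and end. No region of the Fpr locus had opposite signs.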

How the results depend on the processing

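Of 56 ratios of covered length under 7 alternative settings, 45 kept their direction and stayed within 1.5 times the value given. In 1 of these settings the whole length of peaks overlapping a locus was counted. No peak crossed an edge of a locus, so the ratios of that setting could not change, and they are among the 45. The Fpr ratio of stimulated to resting length stayed above 1 in both genotypes under all 7. With peaks at or above the median score of their list it was 6.13 in wt and 17.9 in HDAC3 KO. With only the top 20000 peaks by score it was 8.49 and 17.9. With the locus widened by 20 kb on each side it was 6.22 in HDAC3 KO. The Clec4 ratio of HDAC3 KO to wt when resting, 0.98, turned to 1.03 with peaks at or above the median score, 1.13 with the 20000 highest-scored peaks and 1.12 with the locus widened. Division by the length of each list, which is greatest in stimulated HDAC3 KO, turned the ratio of HDAC3 KO to wt with LPS to 0.94 at the Fpr locus and 0.81 at the Clec4 locus, and the Clec4 ratio of stimulated to resting HDAC3 KO to 0.93. The cause of the other changes was not tested.

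Counts of regions depended on how regions were made. Merged across gaps of up to 500 bp, which leaves fewer regions, the Fpr counts were 1 gained with LPS in wt, 6 in HDAC3 KO, 1 in both and 3 in all 4 libraries, and the Clec4 counts were 0, 1, 0 and 2. Where a peak had to cover at least 50% of a region, the Fpr counts were 14 in wt, 13 in both and 1 in all 4 libraries. With peaks at or above the median score, and also with the 20000 highest-scored peaks, 2 Fpr regions were called in all 4 libraries and 2 Clec4 regions were gained in wt and 2 in both. The other 15 of 32 counts stayed within 1.5 times. No paired analysis was possible because each group had 1 library. Depth is unknown, so a region without a call may be acetylated below the caller's threshold.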
